A study of Mus musculus with 62 samples.

Results

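The 10 genes Fcgr1, Fcgr2b, Fcgr3, Fcer1g, Tlr2, Tlr4, Tlr7, Cd14, Ly86 and Lyz2 encode receptors for antibody and for microbial products, their partners, and a secreted enzyme of phagocytes. They were taken by gene name from the deposited long-RNA abundance tables, by a list of names drawn up with earlier results of these data known, and are 10 of the 53975 gene IDs in those tables. Each level below is a TPM (a read abundance per gene length and per library total), summed over a gene's entries and then rescaled between libraries by the median of ratios (scaled TPM). The tissue was whole mouse hippocampus, with the left and right hippocampi of a mouse pooled into 1 sample. APP mice were of the strain APP NL-G-F, an amyloid model in which the mouse App gene carries a humanised amyloid beta sequence and disease mutations, and control mice were wild-type C57BL/6J (WT). Mice were 3, 6 or 12 months old, which the study describes as ages before, at and well after plaque appearance, with 3 APP mice at each age and 2, 3 and 3 WT mice. The groups carry no further allele or treatment in the labels, and these 17 libraries are those of separate mice. A further 14 long-RNA libraries came from the hippocampal neuronal line HT-22 (mouse), treated with 30 uM of amyloid beta 1-42 or a reverse peptide after 24 h with an anti-HSF1 LNA (a locked nucleic acid, 150 nM) or a scramble LNA (50 uM).

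Fc gamma receptors bind the constant part of IgG on opsonised material. Fcgr1 and Fcgr3 are activating receptors that need the gamma chain Fcer1g, whose ITAM motif recruits the kinase Syk, while Fcgr2b carries an inhibitory ITIM motif. Toll-like receptors sense microbial and damage-associated ligands and signal mainly through Myd88: Tlr2 senses lipoproteins, Tlr4 senses lipopolysaccharide with Cd14 and Ly96, and Tlr7 senses single-stranded RNA in endosomes, to which Unc93b1 brings it. Ly86 (MD-1) pairs with Cd180, a Toll-like receptor homologue. Lyz2 is the lysozyme of macrophages and other myeloid cells. In brain tissue these genes are expressed mainly by microglia and by macrophages of the brain's borders, and microglia around amyloid plaques are known to change their gene expression.

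All 10 genes are protein-coding, and their coordinates are those of the deposited tables (GRCm38). Fcgr2b (chromosome 1, 170958617 to 170976547, minus strand), Fcgr3 (chromosome 1, 171051174 to 171064935, minus strand) and Fcer1g (chromosome 1, 171229572 to 171234365, minus strand) lie within 275.7 kb of each other. Fcgr1 (chromosome 3, 96282909 to 96293969, minus strand) and Tlr2 (chromosome 3, 83836272 to 83841767, minus strand) share chromosome 3. Tlr4 lies on chromosome 4, 66827584 to 66930284, plus strand, Ly86 on chromosome 13, 37345208 to 37419036, plus strand and Lyz2 on chromosome 10, 117277331 to 117282321, minus strand. Tlr7 lies on chromosome X, 167304929 to 167330558, minus strand, and is the only X-linked gene of the 10. Near-identical copies can share reads: over aligned coding bases, Lyz2 and its neighbour Lyz1 were 95.0% identical, with 5.5 kb between them, and Fcgr3 and Fcgr2b were 86.7% identical. Lyz1 was listed at 0 in all 17 hippocampal libraries, so Lyz2 reads were not divided with it in these tables, and the sources used here do not say how reads were divided between Fcgr3 and Fcgr2b.

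RefSeq promoter sequences (GRCm38.p6, 250 bases before to 50 after a gene's start) matched 7 of the 10 genes: Fcgr1, Fcgr2b, Fcgr3, Fcer1g, Tlr2, Ly86 and Lyz2. They are shown because most of the 10 genes were high in the same libraries. Both strands were searched for AGGAAGT (PU.1, a myeloid transcription factor), GGAANNGAAA (a composite of ETS and IRF factors, whose GGAA can overlap AGGAAGT), GGGANTTNCC (NF-kB, a factor downstream of Toll-like receptors) and TGANTCA (AP-1). AGGAAGT was found in the promoters of Fcgr1 and Lyz2, and in 9.35% of all 32851 promoters of the table. GGGANTTNCC was found in Tlr2, and in 1.20% of all promoters. GGAANNGAAA was found in Fcgr2b, 35 bases before its start, and in 2.72% of all promoters, and TGANTCA, present in 7.81%, was found in none of the 7. In the following stretches, which end before the annotated first exons and read 5′ to 3′ along each gene's minus strand, capitals mark the match, which is AGGAAGT on the opposite strand for Fcgr1 and Lyz2. A match describes the letters and not a bound site.
Fcgr1, chr3:96293970-96294119: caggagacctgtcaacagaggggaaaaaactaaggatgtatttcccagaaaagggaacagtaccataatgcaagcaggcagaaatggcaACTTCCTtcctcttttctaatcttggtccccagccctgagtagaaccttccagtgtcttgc
Lyz2, chr10:117282322-117282472: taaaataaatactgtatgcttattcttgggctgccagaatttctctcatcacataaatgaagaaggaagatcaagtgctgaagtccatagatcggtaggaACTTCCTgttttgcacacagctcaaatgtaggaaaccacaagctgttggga
Tlr2, chr3:83841768-83841808: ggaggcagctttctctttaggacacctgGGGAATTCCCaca

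Relative depth, read from the ratio of deposited coverage to FPKM, ranged from 1.42 to 3.04 in arbitrary units over the 17 hippocampal libraries, and total read numbers were not used. The scaling factors ranged from 0.692 to 1.47, and no pair of libraries held identical values. The brain origin was checked against 8 neuronal markers, whose summed level was 1651 to 2584 scaled TPM; these are expressed in many brain regions, and the region itself was not checked. APP mouse 1 of 3 months stood apart, with the lowest neuronal sum and with 8 choroid plexus genes at 2451 scaled TPM in sum, against 39.6 to 1663 in the other 16 libraries. Prkcd, a kinase of the Fc receptor list used below, was at 191 in that mouse, 46.4 in APP mouse 2 of 3 months, 46.5 in APP mouse 1 of 6 months and 5.24 to 13.8 in the other 14. Without APP mouse 1 of 3 months 6 of the 8 phagocyte genes tested were called between 3 and 12 months in APP mice, as many as with it. Xist, expressed from the inactive X chromosome, was at 70.6 to 137 scaled TPM in all 9 APP libraries and both WT libraries of 3 months, and at 0.264 to 0.518 in the 6 WT libraries of 6 and 12 months. The Y-linked Ddx3y was at 18.4 to 28 in those 6 WT libraries and at most 0.0788 in the other 11. At 6 and 12 months genotype and this X and Y difference therefore cannot be told apart, whereas comparisons among APP mice were all made between Xist-expressing libraries. In whole tissue, more cells of a type and more RNA per cell also cannot be told apart.

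In WT hippocampus the 10 genes were weakly expressed. At 12 months Fcer1g was the highest at 8.54 ± 1.72 scaled TPM (SD, n = 3), followed by Lyz2 at 6.55 ± 0.403, Ly86 at 5.33 ± 1.21 and Fcgr3 at 5.24 ± 0.19. The ranges of neighbours in that order overlapped. These 4 genes were measured in the same mice, and their levels were not tested against each other. The ranges of Fcgr3 and the next gene, Tlr7 at 1.26 ± 0.238, did not overlap. Below Tlr7 came Cd14, Fcgr2b, Tlr4, Fcgr1 and Tlr2 with means of 0.492 to 1.1, each overlapping the next. Deposited read depth per exonic base showed how thin these measurements were: over the 17 libraries its median was 0.431 for Tlr4, 0.441 for Tlr7, 0.59 for Fcgr2b and 0.634 for Tlr2, against 6.49 for Fcer1g. In APP mice of 12 months the order of the means was different at the top: Lyz2 at 28.9 ± 0.901 and Ly86 at 23.5 ± 4.47 were followed by Fcer1g at 19.4 ± 3.25 and Fcgr3 at 16.8 ± 4.61, and the ranges of neighbours among these 4 overlapped. Fcgr2b at 6.43 ± 0.529 and Cd14 at 4.82 ± 0.4 stood apart from their neighbours, and Tlr2, Fcgr1, Tlr7 and Tlr4 followed with means of 1.55 to 2.97. Tlr2, last of the 10 in every other group, was seventh there.

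**Figure D1:**
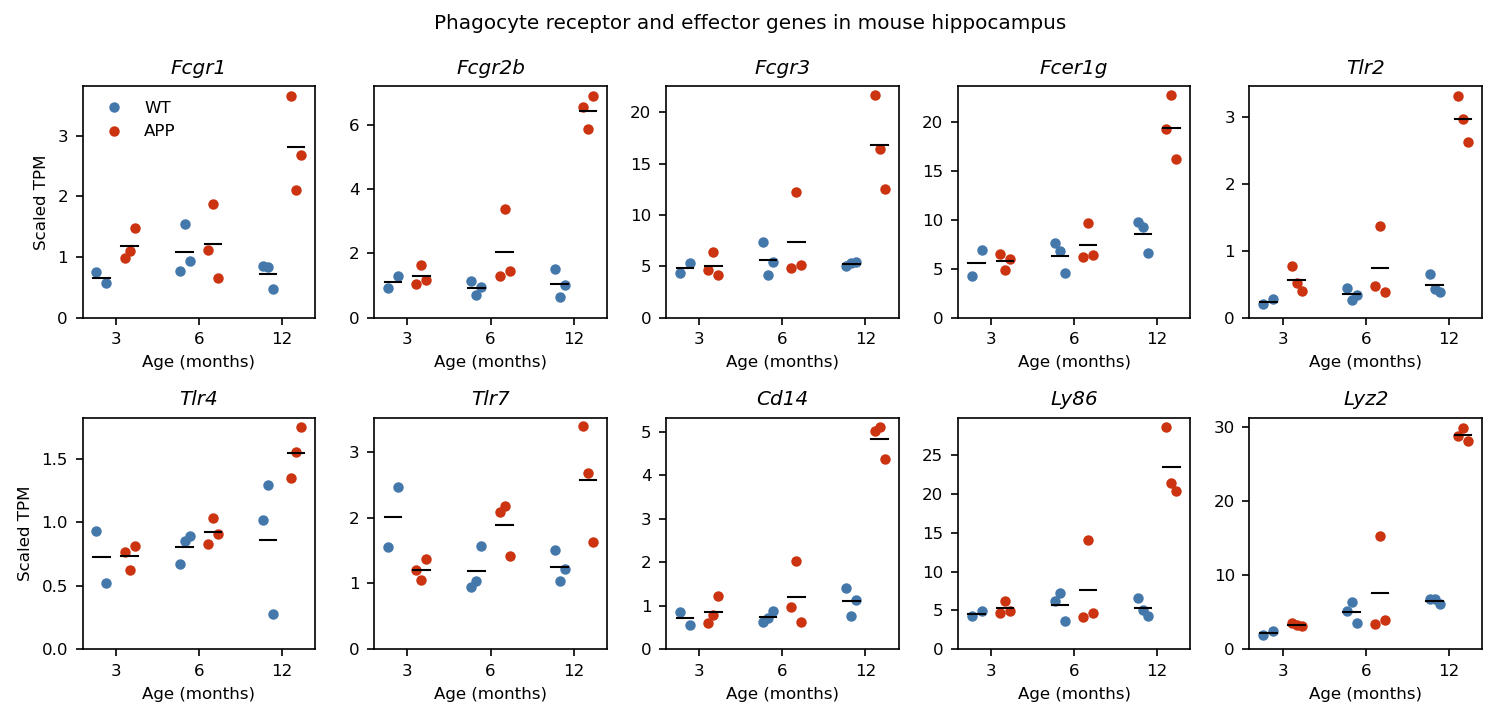
Scaled TPM of each of the 10 genes (vertical axes, each starting at 0) against age in months for WT (blue) and APP (red) hippocampus. Points are mice and black lines are group means; the 3 APP mice of 12 months lie above all 3 WT mice of that age for every gene, and 1 APP mouse of 6 months lies above the other 2 of its group.

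The question put to the 12-month libraries was whether APP hippocampus at the late stage differs from WT in these genes. The 4 Fc receptor genes were higher in APP. Fcgr1, the high-affinity activating receptor, was at 0.845, 0.836 and 0.477 scaled TPM in the 3 WT mice and at 3.66, 2.11 and 2.68 in the 3 APP mice. Its groups did not overlap, and its mean was 3.91-fold higher in APP (log2 change on the log2(scaled TPM + 1) scale 1.14, SE 0.23, limma adjusted p 0.0387). On that scale the change of a low gene is understated, so fold changes of the means are given as well. Fcgr2b, the inhibitory receptor, was at 1.5, 0.631 and 1.01 in WT and 6.55, 5.85 and 6.88 in APP. Even the lowest APP mouse was well above the highest WT mouse, and the mean was 6.14-fold higher (log2 change 1.88, SE 0.23, limma adjusted p 0.00156). Fcgr3, the low-affinity activating receptor, was at 5.02, 5.33 and 5.37 in WT and 21.7, 16.4 and 12.5 in APP. The WT mice were close together and the APP mice were spread, all above WT, with a mean 3.22-fold higher (log2 change 1.48, SE 0.28, limma adjusted p 0.026). Fcer1g, the signalling chain that the activating receptors share, was at 9.81, 9.24 and 6.58 in WT and 19.2, 22.7 and 16.2 in APP. The groups did not overlap and the mean was 2.27-fold higher (log2 change 1.10, SE 0.22, limma adjusted p 0.0376). A further activating receptor, Fcgr4, also a partner of Fcer1g, was at or near 0 in every group, at most 0.681 scaled TPM, and was not tested.

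Among the 3 Toll-like receptors, only Tlr2 passed the test at 12 months, in a fit that it entered through its high APP libraries. Tlr2 was at 0.658, 0.435 and 0.384 scaled TPM in WT and 3.31, 2.97 and 2.62 in APP. The groups were far apart, with a mean 6.03-fold higher in APP (log2 change 1.41, SE 0.20, limma adjusted p 0.00453). Tlr4 was at 1.02, 1.3 and 0.276 in WT and 1.35, 1.55 and 1.75 in APP. Its lowest APP mouse was barely above its highest WT mouse, and the log2 change of 0.49 (SE 0.20) did not pass the test (limma adjusted p 0.556). Tlr2 and Tlr4 had a mean under 1 scaled TPM over the 17 libraries, so both were fitted with the lower filter of 0.5. Tlr2 met that filter only through the APP libraries of 12 months (its mean was 0.493 without them), and with no filter on low values its limma adjusted p was 0.00475. Tlr7, the X-linked receptor, was at 1.51, 1.04 and 1.22 in WT and 3.4, 2.68 and 1.62 in APP. The third APP mouse was close to the WT range, and the log2 change of 0.64 (SE 0.21) did not pass the test (limma adjusted p 0.397). Whether the change in Tlr2 differed from that in Tlr4 or Tlr7 was not tested.

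Both co-receptors were higher in APP at 12 months. Cd14 (chromosome 18, 36725074 to 36726736, minus strand) hands lipopolysaccharide to the Tlr4 complex and also serves Tlr2. It was at 1.41, 0.765 and 1.12 scaled TPM in WT and 5.01, 5.1 and 4.36 in APP. The APP mice were close together and clear of WT, with a mean 4.39-fold higher (log2 change 1.48, SE 0.22, limma adjusted p 0.00634). Ly86 was at 6.65, 5.08 and 4.26 in WT and 28.6, 21.4 and 20.5 in APP, a mean 4.41-fold higher with no overlap (log2 change 1.96, SE 0.33, limma adjusted p 0.0129). Its partner Cd180 had means of 2.25 ± 0.881 in WT and 6.98 ± 0.883 in APP (SD, n = 3), with a log2 change of 1.33 that missed the threshold (limma adjusted p 0.1). The partner of Tlr4, Ly96, was at 0.586 to 1.43 in WT and 0.692 to 0.93 in APP (with the filter of 0.5, log2 change -0.07, limma adjusted p 0.996), and these ranges overlapped.

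Lyz2 had the largest log2 change of the 10 genes. It was at 6.83, 6.73 and 6.09 scaled TPM in WT mice of 12 months and 28.8, 29.9 and 28.1 in APP mice. Each group was tight and they did not overlap, and the mean was 4.42-fold higher in APP (log2 change 1.99, SE 0.34, limma adjusted p 0.0163). Fold changes of the means ranked the genes otherwise, with Fcgr2b and Tlr2 ahead of Lyz2, Ly86 and Cd14.

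In all, 7 of the 8 genes tested in the main analysis were called higher in APP at 12 months, against a background of 0.429% of the 17720 genes tested, and none was called lower, against 0.0226%. With the filter of 0.5, under which all 10 were tested and Tlr2 was called, the background was 0.402%. Fcgr1 and Cd14 met the filter of 1, and Tlr2 that of 0.5, only through the APP libraries of 12 months, so the counts of those tested give no support of their own. For 10 of 10 genes every APP mouse of 12 months was above every WT mouse of that age, as for 8.78% of all genes tested. The median log2 change of the 8 genes was 1.48, beside -0.00041 over all genes. The number of calls depended on having all 6 mice: it was 2, 3 and 4 without APP mouse 1, 2 or 3 and 3, 2 and 2 without WT mouse 1, 2 or 3. Fcgr1, Fcer1g and Lyz2 missed the threshold whichever of the 6 mice was left out (lowest limma adjusted p 0.06, 0.069 and 0.0659). Fcgr2b, Cd14 and Tlr2 passed in every alternative that was run. The log2 change of Fcgr2b was 1.73 to 2.58 over these, which include a pseudocount of 0.1. At the same age the summed level of 8 choroid plexus genes was 422 to 1319 in WT and 1438 to 1663 scaled TPM in APP, and 9 homeostatic microglia genes summed to 69.9 to 82.6 and 103 to 120.0. Their part in the result was not tested.

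Before plaque appearance none of the 10 genes passed the test between genotypes. At 3 months 0 of 8 were called with limma (background 0.124% higher and 0.175% lower), and 0 had an unadjusted p under 0.05. Lyz2 was at 1.97 and 2.45 scaled TPM in the 2 WT mice and 3.48, 3.29 and 3.18 in the 3 APP mice, which did not pass the test (0.43 on the log2 scale, SE 0.38, limma adjusted p 0.699). Fcgr1, Tlr2 and Lyz2 were higher in every APP mouse than in both WT mice, as were 14.1% of all genes tested, and Tlr7 was lower in every APP mouse, as were 2306 of the 17720 genes tested. Tlr7 was at 1.55 and 2.48 in WT and 1.21, 1.04 and 1.37 in APP at this age, where both genotypes expressed Xist, and its log2 change of -0.43 did not pass the test (limma adjusted p 0.458).

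At 6 months 0 of 8 genes were called with limma (background 0.395% higher and 1.12% lower), and 1, Fcgr2b, had an unadjusted p under 0.05. Fcgr2b was at 1.13, 0.688 and 0.941 scaled TPM in WT and 1.3, 3.38 and 1.45 in APP, and was the only one of the 10 whose groups did not overlap, as for 11.0% of all genes tested (log2 change 0.61, SE 0.23, limma adjusted p 0.2). On TPM as deposited, without rescaling, 7 of 8 were called higher, but there the median gene was also shifted by 0.60 on the log2 scale, against -0.0023 after scaling. The share of all genes called on TPM as deposited was not taken, so the 7 cannot be set against a background. The calls at 6 months thus turned on how libraries were scaled.

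One APP mouse of 6 months, replicate 2, stood apart. It was the highest of the 3 APP mice of its age for 10 of 10 genes, as it was for 31.8% of all genes tested, and above all 8 WT libraries for 7 of them, as for 13.5% of all genes tested (Fcgr1, Fcgr2b, Fcgr3, Tlr2, Cd14, Ly86 and Lyz2). Lyz2 was at 3.41, 15.3 and 3.93 scaled TPM in the 3 mice and Ly86 at 4.09, 14.1 and 4.63, so replicate 2 lay between the other APP mice of 6 months and those of 12 months. Cd14 was at 0.96, 2.03 and 0.627 and Fcgr3 at 4.8, 12.3 and 5.15. The 10 genes summed to 25.3, 63.2 and 25.6 scaled TPM, and the 9 homeostatic microglia genes to 64.2, 96.4 and 69.2. Choroid plexus genes summed to 914, 39.6 and 578, so the mouse with the highest phagocyte genes had the lowest choroid plexus signal. Without this mouse the 6-month change of Lyz2 became -0.34, that of Ly86 -0.29 and those of Fcgr1 and Fcgr3 -0.13.

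**Figure D2:**
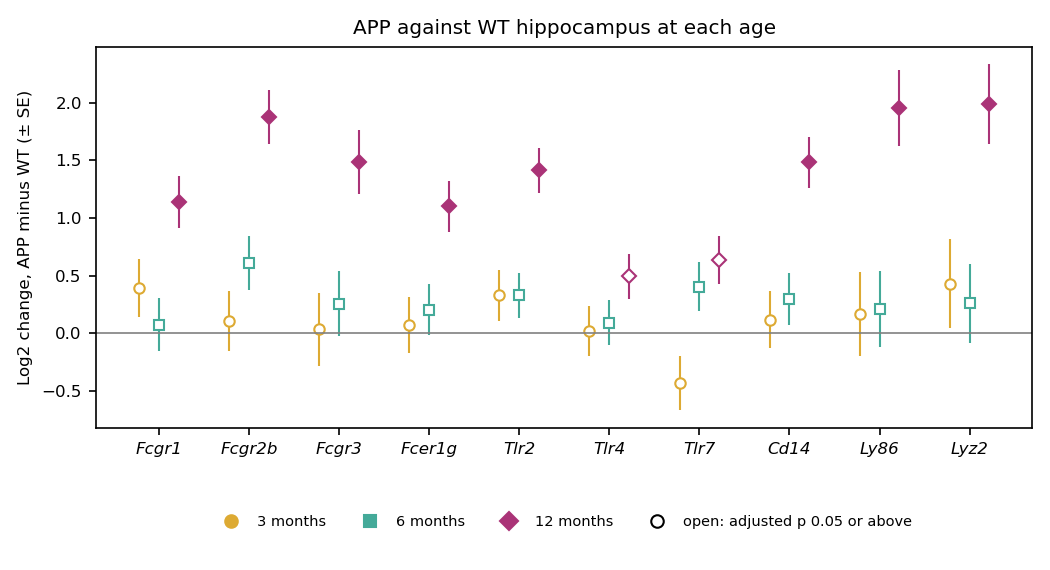
Log2 change of each gene between APP and WT hippocampus (vertical axis, on the log2(scaled TPM + 1) scale, bars ± SE) at 3, 6 and 12 months. Filled symbols passed a limma adjusted p of 0.05; they occur only at 12 months, for every gene but Tlr4 and Tlr7.

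Within APP mice, all of which expressed Xist, the genes were higher at 12 than at 3 months. Lyz2 had 8.72-fold the mean of the 3-month mice (log2 change 2.79, SE 0.34, limma adjusted p 0.00113). Ly86 rose from 4.69, 6.26 and 4.89 scaled TPM to the 12-month values given above (log2 change 1.96, SE 0.33, limma adjusted p 0.00548). Of the Fc receptor genes, Fcgr2b rose from 1.03, 1.63 and 1.17, Fcgr3 from 4.6, 6.34 and 4.11 and Fcer1g from 6.47, 4.89 and 5.99, with log2 changes of 1.71, 1.55 and 1.58 (limma adjusted p 0.0019, 0.00891 and 0.0019). Fcgr1 was at 0.982, 1.1 and 1.47 at 3 months, and its log2 change of 0.79 missed the threshold (limma adjusted p 0.0758). Cd14 rose from 0.589, 0.775 and 1.22 and Tlr2 from 0.77, 0.523 and 0.399, by 1.66 and 1.35 on the log2 scale (limma adjusted p 0.00161 and 0.00302). Tlr4 (0.55, limma adjusted p 0.173) and Tlr7 (0.66, limma adjusted p 0.107) did not pass. In the main analysis 6 of 8 genes were called, against a background of 1.85% higher and 1.50% lower, and with the filter of 0.5, where Tlr2 was also called, the background was 1.51%. Fcgr1 and Cd14 met the filter of 1, and Tlr2 that of 0.5, only through the 12-month libraries. The counts of those tested thus give no support of their own here either. The count was 6 or 7 under every alternative and without any one of the 6 mice. In 10 of 10 genes the 12-month mice were all above the 3-month mice, as for 10.6% of all genes tested. This comparison and that of genotypes at 12 months share the APP libraries of 12 months.

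The rise was then split at 6 months, with no test of one interval against the other. From 3 to 6 months in APP mice 0 of 8 genes were called with limma (background 1.09% higher and 1.10% lower), and 0 had an unadjusted p under 0.05; the log2 change of Tlr7 was 0.38 (limma adjusted p 0.343) and the highest was that of Lyz2, at 0.71 (limma adjusted p 0.283). From 6 to 12 months 5 of 8 were called, against a background of 0.542% higher (and 0.0226% lower): Lyz2 (2.08, limma adjusted p 0.0169), Ly86 (1.68, 0.0384), Cd14 (1.45, 0.0112), Fcgr2b (1.35, 0.0204) and Fcer1g (1.28, 0.0193). Tlr2 rose by 1.23 (limma adjusted p 0.0166, filter of 0.5, background 0.360%). The limit that Fcgr1, Cd14 and Tlr2 met their filters only through the 12-month libraries holds for these counts too. Fcgr3, at 1.16, did not pass (limma adjusted p 0.0935), nor did Fcgr1 at 0.80 (limma adjusted p 0.168), Tlr4 at 0.41 (limma adjusted p 0.494) or Tlr7 at 0.28 (limma adjusted p 0.68). Every APP mouse of 12 months was above every APP mouse of 6 months for 9 of 10 genes, all but Tlr7, as for 10.8% of all genes tested. Choroid plexus genes were also higher by value: 8 of 8 had a change above 0, none called, with a median log2 change of 1.44 beside 1.32 for the 8 phagocyte genes tested, and their sums were 39.6 to 914 scaled TPM at 6 months and 1438 to 1663 at 12 months. Their part in the result was not tested. The number called was 0, 1 and 2 without 12-month mouse 1, 2 or 3, and 1, 6 and 0 without 6-month mouse 1, 2 or 3. The 9 genes above all APP mice of 6 months were in addition above all 14 other hippocampal libraries, as were 1.25% of all genes tested.

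In WT mice 0 of 8 genes were called with limma between 3 and 12 months (background 0.0339% higher and 0.0282% lower), and 2, Lyz2 and Fcer1g, had an unadjusted p under 0.05. Lyz2 was at 1.97 and 2.45 scaled TPM at 3 months, 5.08, 6.39 and 3.59 at 6 months and 6.83, 6.73 and 6.09 at 12 months, and the change from 3 to 12 months did not pass the test (1.24 on the log2 scale, SE 0.38, limma adjusted p 0.405). The 2 young mice were below all 6 older ones, and they also differed from these in Xist and Ddx3y, which cannot be told apart from age. Tlr7 was lower at 12 months than in both 3-month mice, by -0.41 on the log2 scale (limma adjusted p 0.676), and the same limit holds. The share of all genes apart in either way was not taken, so these 2 separations stand without a background.

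Whether the genotype difference grew with age was tested as an interaction. From 3 to 12 months such growth cannot be told apart from the X and Y difference, which was not seen between genotypes at 3 months. Of 5 X and Y linked genes, 1 was called higher and 4 lower in that test, and 0 between 6 and 12 months. Between 3 and 12 months 0 of 8 genes were called with limma (background 0.0395% higher and 0.0339% lower), although all 8 had an unadjusted p under 0.05. Fcgr2b was nearest, with a difference of log2 changes of 1.77 (SE 0.35, limma adjusted p 0.0889), and the 8 differences were 0.74 to 1.79. Between 6 and 12 months 0 of 8 were called (background 0.0226% higher and 0% lower) and 7 had an unadjusted p under 0.05, with differences of 0.23 for Tlr7 to 1.74 for Ly86 (limma adjusted p 0.85 and 0.214). Tlr2 and Tlr4, with the filter of 0.5, did not pass in either test (limma adjusted p 0.24 and 0.682 from 3 months, 0.223 and 0.694 from 6 months). Choroid plexus genes had a median difference of 2.05 in the second test, 8 of 8 above 0 and none called, and their part was not tested. Without APP mouse 2 of 6 months the second test called 3 of 8, for which no share of all genes was taken. The filter limit given above for Fcgr1, Cd14 and Tlr2 holds in both tests.

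The pathways around these receptors were read from lists chosen by function. Of 20 further genes of Fc receptor and ITAM signalling, 14 were tested at 12 months, 13 had a change above 0 and 1 was called higher in APP. Of all 17720 genes tested, 0.429% were called higher, which is the background for each list at this age. The median log2 change of the Fc list was 0.62 beside -0.00041 over all genes. The 1 gene of this list called was Lcp2, an adaptor downstream of Syk, at 0.97 (limma adjusted p 0.0458). Lcp2 averaged 0.906 scaled TPM in WT and 2.71 in APP. Lcp2, Rac2 and Pik3ap1 of this list met the filter of 1 only through the APP libraries of 12 months. The call of Lcp2 and the count, direction and median of those tested therefore give no support of their own. Syk itself was at 0.929 ± 0.353 scaled TPM in WT and 1.63 ± 0.0564 in APP, a log2 change of 0.46 that did not pass (limma adjusted p 0.721). Of 34 further genes of Toll-like receptor and MyD88 signalling, 20 were tested, 19 had a change above 0 and 1 was called, with a median of 0.23: Irf8, a transcription factor of microglia and other myeloid cells, at 1.37 (limma adjusted p 0.026). The shared adaptor Myd88 (0.73, limma adjusted p 0.165), the endosomal chaperone Unc93b1 (0.66, limma adjusted p 0.69) and Tlr13, a sensor of bacterial RNA (0.79, limma adjusted p 0.0635), did not pass. The filter used the mean over all 17 libraries, so the limit on count, direction and median applies to the Toll-like list too. The share of all genes with a change above 0 was not taken. Without any one of the 6 mice the Fc list had 0 calls, and the Toll-like list had 0 without any mouse but WT mouse 3, whose removal left 1.

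Surface and effector genes of phagocytes formed the third list. Of 26 listed, 20 were tested, 20 had a change above 0 and 9 were called higher in APP (background 0.429%), with a median log2 change of 1.11. The filter used the mean over all 17 libraries, so genes high in APP mice of 12 months could enter through these. Clec7a and Itgax met it only in that way. The count, direction and median of those tested therefore give no support of their own. The largest changes were those of Clec7a (Dectin-1, a beta-glucan receptor that works through Syk), at 0.294 ± 0.198 scaled TPM in WT and 12.7 ± 3.68 in APP (3.38, limma adjusted p 0.0129), and Itgax (CD11c, an integrin chain), at 0.123 ± 0.159 and 7.63 ± 1.03 (2.95, limma adjusted p 0.00799). Mpeg1, a pore-forming protein of macrophages (1.85), Cd68, a lysosomal protein of macrophages (1.83), Ptprc, the leukocyte marker CD45 (1.61), the NADPH oxidase subunits Cyba (1.38) and Ncf1 (1.10), Laptm5 (1.31) and the growth factor receptor Csf1r (0.93) were the others called (limma adjusted p 0.00799 to 0.0376). The count was 1, 6 and 1 without APP mouse 1, 2 or 3, and 5, 4 and 2 without WT mouse 1, 2 or 3. None of the 3 lists had a gene called lower, against 0.0226% of all genes tested.

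Between 3 and 12 months in APP mice the same lists had 6 of 14, 3 of 20 and 14 of 20 genes called higher, against a background of 1.85%. Their medians were 0.69, 0.30 and 1.17 beside -0.0027 over all genes. On the Fc receptor side these were Lcp2 (1.30), Ptpn6, the phosphatase SHP-1 (1.78), Vav1 (1.16) and Rac2 (1.13) of the actin pathway, Pik3ap1 (0.92) and the kinase Lyn (0.89), with limma adjusted p of 0.00336 to 0.0479. Lcp2, Rac2 and Pik3ap1, and Clec7a and Itgax of the phagocyte list, were among the genes that met the filter only through the APP libraries of 12 months. The counts of those tested therefore give no support of their own. On the Toll-like receptor side they were Cd180 (1.97, limma adjusted p 0.00397), Irf8 (1.55, limma adjusted p 0.00533) and Tlr13 (0.88, limma adjusted p 0.0122). The Fc count was 1 without any one APP mouse of 12 months and 2, 2 and 5 without 3-month mouse 1, 2 or 3, and the phagocyte count was 8 without 12-month mouse 1 or 3. Oligodendrocyte genes were lower at 12 months in the same comparison, with 5 of 8 called lower (background 1.50%) and sums of 1559 to 2635 scaled TPM at 3 months and 1125 to 1258 at 12 months. Their part in the result was not tested.

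**Figure D3:**
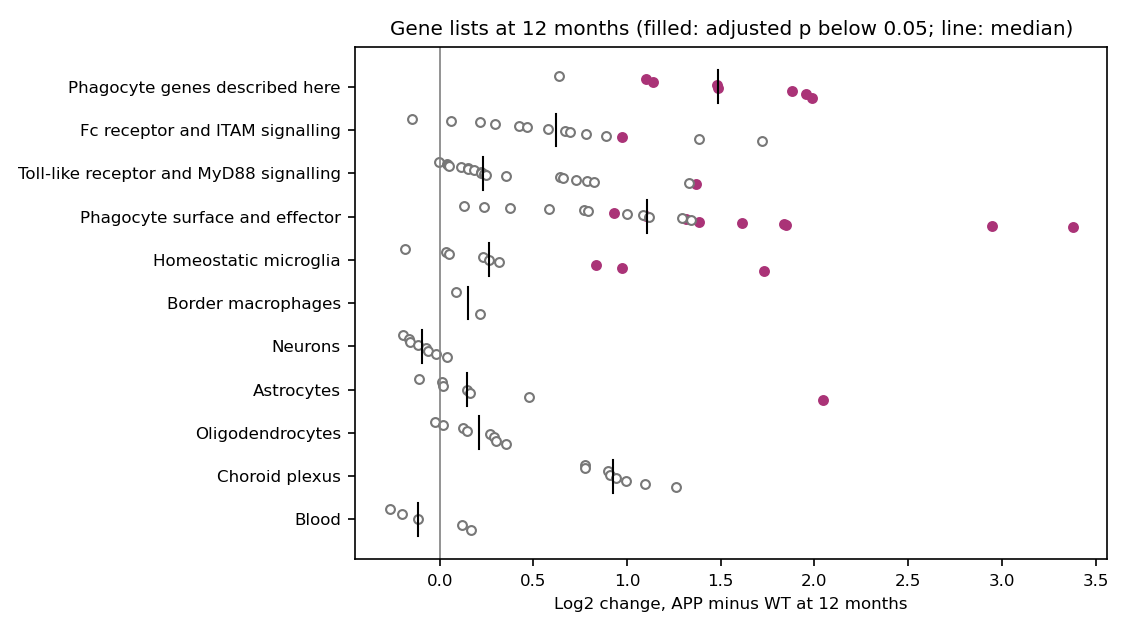
Log2 change between APP and WT hippocampus at 12 months (horizontal axis) for the tested genes of each list, 1 point per gene, with black lines at list medians and filled points where the limma adjusted p was under 0.05. The top row holds 8 of the 10 genes described here (7 filled, median 1.48); in the phagocyte list 9 of 20 are filled, and the neuron, oligodendrocyte, choroid plexus and blood lists have none filled.

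The phagocyte genes were also set against microglial genes as such. Of 9 homeostatic microglia genes, 3 were called higher in APP at 12 months (background 0.429%): Fcrls (1.73), Gpr34 (0.97) and Olfml3 (0.83), with limma adjusted p of 0.0024 to 0.0457. P2ry12, a purinergic receptor typical of resting microglia, was at 16.7 to 22.1 scaled TPM in WT and 17.8 to 22.2 in APP (0.036, limma adjusted p 0.998), and Tmem119 was at 6.47 to 8.62 and 7.97 to 11.7 (0.26, limma adjusted p 0.832). The sum of the 10 phagocyte genes was 26.8 to 35.2 scaled TPM in WT and 97.2 to 122 in APP mice of 12 months. Divided by the sum of the homeostatic genes, it was 0.383 to 0.427 in WT and 0.893 to 1.18 in APP, and 0.301 to 0.421 in the mice of 3 months and the WT mice of 6 months. The 3 APP mice of 6 months had ratios of 0.394, 0.656 and 0.370, the high one in replicate 2. The ratio was therefore higher in APP mice of 12 months than in any other mouse, a description of 2 sums of which one was chosen for these genes.

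**Figure D4:**
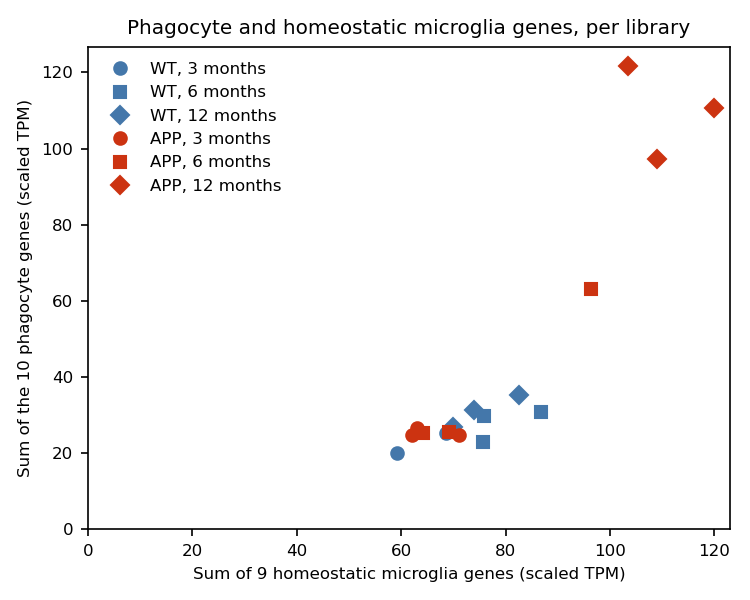
Sum of the 10 phagocyte genes (vertical axis, scaled TPM) against the sum of 9 homeostatic microglia genes (horizontal axis, scaled TPM) in each of the 17 hippocampal libraries. The 3 APP mice of 12 months lie at the top right (97.2 to 122 on the vertical axis), 1 APP mouse of 6 months lies at 63.2, and the other 13 libraries lie between 20.0 and 35.2.

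Markers of blood-borne white cells were near 0, whereas 5 red-cell genes summed to 136 to 220 scaled TPM in WT and 149 to 181 in APP mice of 12 months. Of 10 genes of monocytes and neutrophils none averaged 0.5 scaled TPM or more in any group, 9 were at 0 in every APP library of 12 months, and their sum was 0.0308 to 0.344 there and 0.0221 to 0.612 in WT. Of 9 B and T lymphocyte genes in the files, none averaged 0.5 or more in any group, and the sum was at most 0.918 in APP mice of 12 months. Border macrophage genes, 2 of 8 of which could be tested, summed to 5.64 to 11.5 in WT and 5.11 to 14.5 in APP at 12 months, overlapping ranges with 0 calls. Neuron, oligodendrocyte and blood genes had 0 calls at that age, and of 7 astrocyte genes only Gfap was called (2.04, limma adjusted p 0.00634, background 0.429% higher). All 8 choroid plexus genes had a change above 0 at 12 months, with a median of 0.92 and 0 calls.

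Over the 17 libraries the 10 genes followed each other to different degrees. Tlr2 and Ly86 were the most typical, with median Pearson r of 0.93 and 0.92 to the 9 others on the log2 scale. Tlr7 (0.60) and Tlr4 (0.71) were the least. Outside the 10 genes and among all genes tested, those most like the mean of the 8 tested genes were Itgax (r 0.981), Ctss (0.98), Mpeg1 (0.98), Ccl6 (0.977), Tyrobp (0.975), Cst7 (0.97), Ctsz (0.969), Lag3 (0.968), Tlr13 (0.964) and Clec7a (0.963). Tyrobp (DAP12) is an ITAM adaptor like Fcer1g, and was at 9.5 and 44.5 scaled TPM on average in WT and APP mice of 12 months. Ctss and Ctsz are lysosomal cathepsins and Cst7 a cathepsin inhibitor, and Cst7 averaged 0.211 and 31.2. These r values describe 17 libraries that share groups, scaling and depth, and rest largely on the APP mice of 12 months. Itgax and Clec7a, and Fcgr1 and Cd14 among the 8 averaged, met the filter of 1 only through those mice, so their r values give no support of their own.

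HT-22 cells served as a neuronal background, measured in 14 libraries that were scaled among themselves and are only set beside the hippocampus. Fcgr1, Fcgr2b and Ly86 were listed at 0 in all 14, Fcgr3 in 13, Fcer1g in 11 and Tlr7 in 9. Tlr2 was at 0 to 0.541 scaled TPM and Lyz2 at 0 to 2.59. Cd14 was found in every library, at 2.61 to 6.47 with a median of 3.81. Tlr4 was at 9.3 to 53.1 with a median of 42, so that it was the highest of the 10 genes in this line, whereas it was among the lowest in hippocampus.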

How the data were processed

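Long RNA from 17 mouse hippocampi and 14 HT-22 cultures was sequenced after fragmentation and ribosomal RNA depletion, per the labels' protocols. The authors deposited a StringTie abundance table per library with coverage, FPKM and TPM for each gene. The submitters' processing notes name GRCm38 (mm10), HISAT2 2.1.0, StringTie 1.3.4d, cutadapt 1.18 and FastQC, with no parameters. The deposited TPM values were summed per gene ID and scaled by median of ratios over genes above 0 in every mouse library (20713 genes). The deposited coverage signal (mean read depth per base) and the deposited FPKM served only for depth, which is relative here, so no counting interval is given. Changes were fitted with limma 3.58.1 (R 4.3.3) on log2(scaled TPM + 1), trended and robust, in 1 model of the 6 mouse groups, over the 17720 genes with a mean scaled TPM of at least 1, with Benjamini-Hochberg adjustment over all of them and a threshold of 0.05. Tlr2 and Tlr4 fell below that minimum and were fitted over the 21414 genes with a mean of at least 0.5. On data simulated for the 12-month comparison (17720 genes), 64% of 100 genes with a log2 change of 1 and 94% of 100 with a change of 2 were recovered, with 12 false calls.

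The members and lists were chosen with earlier results of these data known. All 10 members are named in the comparisons in which any member was called in the main analysis. In the other comparisons between mouse groups only some members are named, and the counts cover all those tested. Names given from the lists are those of genes called and of a few partners set in advance (Ly96, Cd180, Unc93b1, Myd88, Syk, Fcgr4, Lyz1). In the comparison of ages in APP mice the phagocyte and oligodendrocyte genes called are not all named. Tlr13, P2ry12, Tmem119 and Prkcd were added after their values were seen. The genes most alike are the 10 with the highest r. Lists covered Fc receptor and ITAM signalling, Toll-like receptor and MyD88 signalling, phagocyte surface and effector genes, homeostatic microglia, border macrophages, monocytes and neutrophils, B and T lymphocytes, neurons, astrocytes, oligodendrocytes, choroid plexus and blood. Alternatives were TPM as deposited, quantile normalisation, a pseudocount of 0.1, other filters, fitting only the groups compared, array weights, a block for the replicate number and leaving out each library. Short-RNA libraries were not used. One gene of the homeostatic microglia list is not reported here, and that list's counts and sums are without it. Promoters came from RefSeq and coding sequences from GENCODE on GRCm38.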

Additional observations from a re-analysis of the deposited data

Results flagged for a closer look

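A library stood far from the others of its group for 2 genes, both in HT-22 cells. Fcer1g was at 0.649 scaled TPM in 1 of 4 libraries with reverse peptide and scramble LNA and listed at 0 in the other 3. Tlr7 was at 0.150 in 1 of 4 libraries with amyloid beta 1-42 and scramble LNA and listed at 0 in the other 3. Where 3 of 4 libraries are listed at 0, the rule used marks any value above 0 in the other. Both values are near the lowest that could be read.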

How the results depend on the processing

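Leaving out 1 library at a time gave 2 to 4 members called between genotypes at 12 months (7 with all libraries), 0 to 6 from 6 to 12 months in APP mice (5 with all) and 0 to 3 for the interaction from 6 to 12 months (0 with all). The Fc, Toll-like and phagocyte lists then gave 0, 0 to 1 and 1 to 6 calls at 12 months, and 1 to 5, 2 to 4 and 8 to 14 from 3 to 12 months in APP mice. At 6 months the change between genotypes ranged, with 1 library left out, from -0.13 to 0.27 for Fcgr1, -0.13 to 0.47 for Fcgr3, -0.29 to 0.50 for Ly86 and -0.34 to 0.60 for Lyz2. Where a group was left with 1 WT mouse of 3 months, that mouse was assumed to vary like the other groups.

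On TPM as deposited 7 members were called at 6 months, 2 from 6 to 12 months in APP mice and 2 for the interaction from 3 to 12 months, the interaction of Tlr7 from 6 to 12 months was -0.10, and the Fc and Toll-like lists had 3 and 2 calls at 12 months. With only the groups compared in the fit, members had 0 calls from 6 to 12 months in APP mice and 3 for the interaction from 3 months, the Toll-like list 0 at 12 months and 1 from 3 to 12 months, and the Fc list 3 from 3 to 12 months. A pseudocount of 0.1 gave 3 members from 6 to 12 months in APP mice, 0, 0 and 5 calls of the 3 lists at 12 months and 3 of the Fc list from 3 to 12 months. Quantile normalisation, a filter of 0.5 and no filter each gave 2 and 2 calls of the Fc and Toll-like lists at 12 months, and array weights 4 and 3. Deviations of same-numbered libraries from their group means had r of -0.067 to 0.12 over 8 pairs, 1 above 0.1. Such deviations sum to 0 within these small groups, so the r values cannot decide whether the numbers pair the mice. With the replicate block 6 members were called at 12 months, Fcgr1 being lost (limma adjusted p 0.0663), and 0 and 0 genes of the Fc and Toll-like lists. Over all single-gene alternatives 908 kept their direction and side of the threshold, 70 lost their call, 19 gained one and 7 changed direction. The cause was not tested. Apart from the filter of 0.5, the share of all genes called under an alternative was not taken, so those counts stand without a background. Low read depth limits Tlr4, Tlr7, Tlr2 and Fcgr2b most, and with 3 mice or fewer a group a missed threshold does not show that levels were alike.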
